A study of Mus musculus with 11 samples.

Results

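The response of tibialis anterior, a fast muscle of the mouse lower leg, to 3 days of denervation was read in the control genotype, which accounts for 6 of the 11 arrays of the study. The 6 arrays were chosen by their sample titles: 3 of denervated control muscle and 3 of innervated control muscle. Both groups carried the genotype runx1f/-, a floxed and a null allele of the transcription factor gene Runx1, and neither carried the MCK::cre transgene that defines the 5 mutant arrays of the study, where Cre is made in muscle fibres under the promoter of muscle creatine kinase. The contrast is therefore one of muscle with a single intact Runx1 allele in both groups, and no wild-type muscle entered it. Total RNA of the whole muscle was measured. Age and strain are not given in the sources used here, nor whether the 3 arrays of a group came from separate animals; a p then reflects variation among these samples only, which may be technical. The title of denervated control 3 says 3 days and its treatment note says 5 days. Without it 3747 genes were called in place of 4208.

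A muscle fibre that loses its nerve stops contracting and loses its electrical activity. In innervated fibres that activity keeps the genes of acetylcholine receptors silent outside the synapse, through class II histone deacetylases, Dach2 and the myogenic factors. After denervation, receptors spread over the fibre surface, fibres become inexcitable in part and shrink as the ubiquitin-proteasome and autophagy systems break down contractile protein, and fetal isoforms of channels and sarcomere proteins return. Tibialis anterior is rich in fast glycolytic fibres, which rely on glycogen, creatine phosphate and fast calcium handling.

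The values are Affymetrix probe set signals. Each change below is a difference of mean log2(signal + 16), denervated minus innervated, with the standard error of the fit (SE, n = 3 and 3 arrays), and a gene is read by its brightest probe set. Signals are listed for denervated controls 1, 2 and 3 against innervated controls 1, 2 and 3, and a rise or fall in folds is 2 to the power of that difference. A gene is said to have risen or fallen only where its limma p, adjusted by Benjamini and Hochberg's method over 26170 probe sets, lay below 0.05. Control probe sets for bacterial trp, which match no mouse gene, gave 22.8 to 440, and mean signals within those bounds are called background-level, and a fold that involves one depends on the background. The median signal of the 6 arrays lay between 451.7 and 528.9. The hybridisation spike-in RNAs, which are added in equal amounts, averaged 13.17, 13.23 and 13.15 (log2 signal) on the denervated arrays and 13.83, 14.3 and 13.9 on the innervated arrays, so the groups differed by -0.83 (p = 0.1 by an exact permutation test, two-sided, the smallest that 3 against 3 arrays allow). Centring the arrays on these RNAs moved the median change of all genes from -0.01 to 0.82, so every change here is relative to the other genes on the array, and a fall smaller than about that shift turns into a rise with spike-in centring.

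Markers of the muscle fibre were all measured, and 12 of 16 fell (median -0.46, or 0.37 with spike-in centring). That count was 1 with quantile normalization (median -0.03) or with the 5'-to-3' ratio of each array as a covariate (median -0.24), 3 without the filter on low signals and 4 without denervated control 3. It was 5 without denervated control 2 or innervated control 1, and 6 with the 6 control arrays fitted alone or without a trend in the variance. Their summed signal was 2160827 to 3038922 on the denervated and 3303957 to 3708829 on the innervated arrays. The summed signal of 24 macrophage markers was 143624 to 201656 against 64138 to 86376, and 13 of them rose. Of 15 endothelial markers 7 fell (4 without innervated control 3, with median scaling or with the covariate; summed 51274 to 56838 against 72396 to 80588; median -0.57, or 0.26 with spike-in centring), as did 8 of 12 pericyte and smooth muscle markers (summed 226597 to 251653 against 295775 to 348407; median -0.76, or 0.07 with spike-in centring). The part of these marker shifts in the changes below was not tested, and in whole-muscle RNA fewer cells of a type and less RNA per cell cannot be told apart. Single marker genes are taken up after the fibre genes.

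Denervation changed 4208 of the 12214 genes tested, or 34.5%. Of these, 2205 (18.1% of the genes tested) rose and 2003 (16.4%) fell, and the arrays of the groups did not overlap for 5709 genes (46.7%). That last share is the one to set beside each gene said below to separate the groups. Some genes were named by rules that require a call and no overlap, so their separation adds no support. Counts for the lists below stand against the shares of 18.1% and 16.4%. A rise of at least 2-fold was called for 879 genes (7.2%) and a fall of at least 2-fold for 785 (6.43%). Changes of at least 4-fold were called for 212 genes that rose (1.74%) and 197 that fell (1.61%). With spike-in centring 7386 genes were called higher and 390 lower, and with the 5'-to-3' ratio of each array as a covariate 1172 were called higher and 1303 lower. That ratio differed by -0.06 (Gapdh) and -0.17 (actin) on the log2 scale between the groups (exact two-sided permutation test, p = 0.2 and 0.3).

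**Figure D1:**
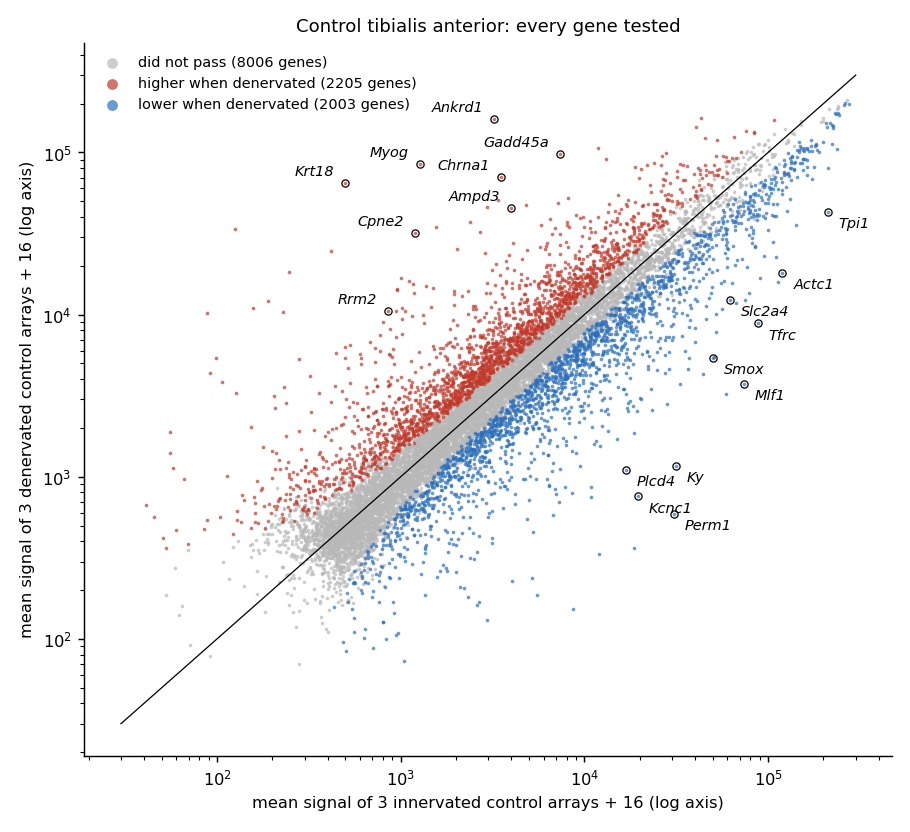
Mean signal of each of 12214 genes on the 3 innervated (horizontal) and 3 denervated (vertical) control arrays, both on log axes with 16 added. Red points are the 2205 genes that rose, blue points the 2003 that fell and grey points those that did not pass; the line marks equal signal, and labelled genes are described in the text.

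Of the 5 acetylcholine receptor subunits of muscle 4 rose, Chrna1, Chrnb1, Chrnd and Chrng. Chrne, which encodes the adult epsilon subunit that replaces the fetal gamma subunit after birth, did not pass. The signals of Chrna1, the subunit that carries most of the binding site, were 77295, 70854 and 62968 on the denervated and 4297, 2806 and 3374 on the innervated arrays, a 20.3-fold rise (limma adjusted p = 3.4e-09). Those of Chrnb1 were 26958, 29128 and 23801 and 5177, 6124 and 7274, a 4.32-fold rise (limma adjusted p = 3.5e-07). Every denervated array lay above every innervated array for both genes, and the 3 denervated values lay close together. Chrng, the fetal gamma subunit, read 10267, 9627 and 10959 on the denervated arrays and 72.9, 74.1 and 71.0 on the innervated arrays, a background-level mean. Chrnd, the delta subunit, likewise read 5703, 5779.9 and 4647 against 47.3, 114 and 86.7, so the folds of both genes rest on background. Chrne read 1399.9, 925 and 668 against 1495, 1467 and 1626 (log2 change -0.67 ± 0.29, limma adjusted p = 0.104). All 3 of its denervated arrays were lower than the innervated arrays, without passing the threshold, and the change passed without denervated control 1 (-0.94).

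The stretches just upstream of these genes, and of Myog, whose product binds the E-box letters CANNTG, are shown because the receptor genes that rose and the epsilon gene that did not pass belong to the same receptor. Each is the 250 bases before the start listed in RefSeq (build GRCm38.p6), written 5′ to 3′ on the strand of the gene, with every CANNTG in capitals; Chrnd is named only. The Chrna1 stretch lies at chr2:73580339-73580588 (minus strand), that of Chrnb1 at chr11:69795938-69796187 (minus), that of Chrng at chr1:87205561-87205810 (plus), that of Chrne at chr11:70619195-70619444 (minus) and that of Myog at chr1:134289754-134290003 (plus).
Chrna1: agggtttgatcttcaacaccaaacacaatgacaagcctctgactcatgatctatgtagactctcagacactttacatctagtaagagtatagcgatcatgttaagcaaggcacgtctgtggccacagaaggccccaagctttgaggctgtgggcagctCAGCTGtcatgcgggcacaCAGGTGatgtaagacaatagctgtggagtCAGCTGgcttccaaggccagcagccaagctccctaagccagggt
Chrnb1: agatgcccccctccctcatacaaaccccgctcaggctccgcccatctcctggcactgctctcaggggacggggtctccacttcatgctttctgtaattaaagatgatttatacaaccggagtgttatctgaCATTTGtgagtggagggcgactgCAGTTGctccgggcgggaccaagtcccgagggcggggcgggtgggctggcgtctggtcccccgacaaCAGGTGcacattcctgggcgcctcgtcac
Chrng: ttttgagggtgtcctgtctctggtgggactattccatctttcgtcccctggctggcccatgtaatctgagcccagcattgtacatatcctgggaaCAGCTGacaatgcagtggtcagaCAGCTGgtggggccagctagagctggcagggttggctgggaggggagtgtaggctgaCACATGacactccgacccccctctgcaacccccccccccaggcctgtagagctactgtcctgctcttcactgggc
Chrne: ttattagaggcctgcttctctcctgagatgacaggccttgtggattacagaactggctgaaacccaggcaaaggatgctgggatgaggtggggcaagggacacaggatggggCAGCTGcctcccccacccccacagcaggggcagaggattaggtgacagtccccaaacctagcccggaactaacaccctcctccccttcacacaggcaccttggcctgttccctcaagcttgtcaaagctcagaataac
Myog: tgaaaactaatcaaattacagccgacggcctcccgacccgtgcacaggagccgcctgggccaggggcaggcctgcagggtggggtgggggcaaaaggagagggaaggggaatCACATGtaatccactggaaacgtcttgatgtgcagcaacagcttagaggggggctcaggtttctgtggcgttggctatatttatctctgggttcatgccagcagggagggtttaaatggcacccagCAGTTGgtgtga
The stretches of Chrna1, Chrnb1 and Chrng hold 3 E-boxes each, that of Myog holds 2 and that of Chrne 1. The core CAGCTG, which is a subset of the E-boxes, occurs 2 times in Chrna1, 2 times in Chrng, 1 time in Chrne and not in the windows of Chrnb1 and Myog. Over all genes tested that have a listed start, 57.4% hold CANNTG and 12% hold CAGCTG in the same window, on either strand, so a match by itself is common. A match is a description of the letters and not of binding.

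Genes that build the synapse around the receptor were less uniform. Of 27 synapse organiser and basal lamina genes, 3 rose (5 without innervated control 3) and 11 fell (median -0.08). Musk, the receptor kinase through which agrin clusters acetylcholine receptors, gave 11121, 11436 and 7046 on the denervated and 1237, 1778 and 929.7 on the innervated arrays, a 7.51-fold rise (limma adjusted p = 2.91e-06). Denervated array 3 was the lowest of its group and still lay far above the innervated arrays. Rapsn, the scaffold under the receptor, rose 1.63-fold. Lrp4, the agrin receptor, had a difference of 0.70 ± 0.28 (limma adjusted p = 0.0782), and it passed with the replicate block and without denervated control 1 or innervated control 3 (0.96 and 0.99). Agrn itself had a difference of -0.08 ± 0.17 (limma adjusted p = 0.758). Ache, the esterase that ends transmission, was 3.26-fold lower, and Lamb2, the synaptic laminin beta chain, 2.5-fold lower. Ky, a Z-disc protein whose loss causes kyphoscoliosis in mice, fell the most of this list. Its signals were 1232, 882 and 1335 against 29468, 36781 and 27876, a 27.1-fold difference (limma adjusted p = 3.4e-09).

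Adhesion and guidance molecules, many of them shared with neurons, included genes that rose and genes that fell. Of 40 tested, 10 rose and 4 fell (median -0.11, against -0.01 for all genes), while 2 rose and 5 fell with the 5'-to-3' covariate. Ncam1, the neural cell adhesion molecule that spreads over denervated fibres, had signals of 6417, 5889 and 5981 against 1017, 885 and 779, a 6.75-fold rise (limma adjusted p = 1.63e-06), and all 4 of its other probe sets rose too. Nrcam, a relative, read 10967, 11718 and 10382 against a background-level 184, 55.4 and 186. The 3 denervated values lay close together for both genes. Among secreted or membrane-bound semaphorins, Sema3e rose 3.67-fold from a background-level signal and Sema4d 1.82-fold, while Sema6c was 4.51-fold lower. Neurotrophic factors and their receptors went both ways, with 5 of 15 higher and 5 lower (2 without denervated control 1). Gdnf, a survival factor for motor neurons, read 642, 1459 and 1246 against 38.1, 15.1 and 71.2 and rested on background, and its receptor subunit Gfra1 rose 2.16-fold. Ntf5, which encodes neurotrophin-4, was 8.99-fold lower, to a background-level signal.

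Regulators of the denervation programme changed in both directions. Of 24 myogenic and MEF2 factors 7 rose and 3 fell (5 with the replicate block in the 6 control arrays or without innervated control 2; median 0.17). Myog read 96626, 97362 and 60644 on the denervated and 1512, 1069 and 1170.0 on the innervated arrays, a 66.2-fold rise (limma adjusted p = 5.21e-09). Myf6, the myogenic factor of adult fibres, read 86232, 89987 and 76104 against 26124, 19473 and 19894, and Myod1 17057, 15754 and 14130.0 against 4632, 3857 and 3586. All 3 genes separated the groups completely, and Myf6 and Myod1 rose 3.88-fold and 3.89-fold. Myf5, the early myogenic factor, had a difference of 0.35 ± 0.26 (limma adjusted p = 0.347). Id2 and Id3, which bind E proteins and keep them from DNA, rose 6.56-fold and 2.41-fold, and Tead4 rose 9.25-fold from a background-level signal.

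The deacetylase circuit that couples activity to the receptor genes held opposite changes. Hdac4, a class II deacetylase that accumulates at denervated synapses, read 15581, 18971 and 21717 against 3197, 3284 and 2902, a 5.92-fold rise (limma adjusted p = 8.34e-08). Its relative Hdac9 read 342, 241 and 447 against 1272, 1367 and 1367, 3.87-fold lower, and Dach2, a repressor of Myog, was 6.89-fold lower. The groups did not overlap for any of the 3 genes, and the denervated levels of Hdac9 and Dach2 were background-level. Camk2a, a kinase that exports class II deacetylases from the nucleus, was 4.15-fold lower, and Sik1, another such kinase, rose 3.46-fold. Of the 15 genes of the circuit 3 rose and 5 fell (3 without innervated control 3 or with median scaling). Runx1 itself rose 64.9-fold from a background-level signal, on its brightest probe set, while the dimmest of its 5 others gave -0.01. The co-repressor Runx1t1 rose 2.32-fold. The other 5 of 7 RUNX factors and partners tested did not pass, among them Cbfb, the partner subunit of RUNX proteins (0.14 ± 0.15, limma adjusted p = 0.547).

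Early response factors were called higher in 12 of 27 cases and lower in 2 (median 0.57). Myc read 6389, 6873 and 5310.3 against 690.4, 918 and 506 and Atf3, a stress-induced factor, 8878, 13112 and 5101 against 650.1, 707 and 1010.2. Neither gene's groups overlapped; Atf3 varied more between the denervated arrays. Junb rose 4.39-fold and Egr1 6.37-fold, whereas Fos, their best-known companion, had a difference of 0.62 ± 0.40 (limma adjusted p = 0.276; 1.74, past the threshold, with the 5'-to-3' covariate). Nr4a1, an orphan receptor that responds to contraction and drives glycolytic genes in fast muscle, went the other way, with 6017, 7204 and 3223 against 62230.2, 44866 and 45540.2, 9.66-fold lower (limma adjusted p = 2.15e-06). Of 19 clock genes 5 rose (26.3%, against 18.1% of all genes) and 4 fell (21.1%, against 16.4%). Arntl, the positive clock factor, rose 3.58-fold and its partner Clock 1.91-fold; Nfil3 was 2.43-fold and Hlf 2.42-fold lower, and Per2 (0.23 ± 0.16, limma adjusted p = 0.313) did not pass.

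Regulators of oxidative metabolism were called lower more often than higher. Of 21 PPAR, PGC-1 and ERR genes, 12 fell and 1 rose (median -0.79, or 0.04 with spike-in centring). Perm1, a regulator of oxidative genes downstream of PGC-1, read 728, 603 and 399 against 25821, 36278 and 30282 (log2 change -5.73 ± 0.24, limma adjusted p = 6.82e-09), while another of its probe sets gave 0.06. The groups of the brighter probe set lay far apart, and its signal on denervated array 3 was within the background range. Ppara, Rxrg, Esrra and Ppargc1b were 6.62-fold, 5.23-fold, 3.3-fold and 3.29-fold lower. Ppargc1a itself had a difference of -0.79 ± 0.30 (limma adjusted p = 0.0626), which passed without denervated control 1 or 2 (-1.04 and -0.99) and with the replicate block in the 6 control arrays. Pprc1, the third member of its family, rose 1.76-fold.

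Potassium channel genes were called lower more often than higher. Of 29 potassium channel genes 11 fell and 4 rose (median -0.56, or 0.27 with spike-in centring). Kcnc1, a fast voltage-gated channel, read 1078, 629.5 and 519.5 against 16846, 20942 and 20865, 26.9-fold lower (limma adjusted p = 7.14e-08), and its modulatory relative Kcng4 read 73.9, 122 and 217 against 9213, 9363 and 7278, down to background. Kcna7 and the inward rectifier Kcnj12 were 8.91-fold and 4.58-fold lower. All 4 genes separated the groups completely. Kcnn3, a calcium-activated channel associated with denervated fibres, rose 13.6-fold and Kcnk5, a background potassium channel, 6.95-fold, both from background-level signals. Scn4b, a sodium channel beta subunit, was 6.76-fold lower (limma adjusted p = 1.39e-06), and Clcn1, the chloride channel that stabilises the resting membrane, 3.15-fold lower (limma adjusted p = 0.000155). Of the other 11 sodium and chloride channel genes none passed, and Scn3b rose 2.28-fold.

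Subunits of the sodium pump changed in both directions. Atp1b1, the main beta subunit, read 17828, 15548 and 17362 against 90815, 83767 and 97720.4, 5.36-fold lower (limma adjusted p = 9.22e-08), and all 3 of its other probe sets fell as well. Atp1b2 was 2.78-fold lower, and Atp1b4, a relative that lost its pump function in mammals, fell to background. Atp1b3 rose 1.52-fold and the pump modulator Fxyd6 1.86-fold. In all 3 of 8 genes fell and 2 rose.

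Most calcium handling genes that changed fell, and the slow calcium pump and its inhibitors rose. Of 38 triad and reticulum genes 20 fell and 6 rose (median -0.50, or 0.33 with spike-in centring). Atp2a2, the slow and cardiac calcium pump, rose 3.62-fold (limma adjusted p = 4.85e-07), although another 2 probe sets (0.15 and 0.36) did not pass. Its peptide inhibitors rose too: Pln read 7679.6, 11373 and 12592 against 1058, 888 and 829.8 and Sln 5949.7, 3320.4 and 2969.7 against 1178, 668 and 1124. The denervated arrays were higher throughout for both, and the rises were 11-fold and 4-fold. The sodium-calcium exchanger Slc8a3, the reticulum protein Hrc, the junctophilins Jph1 and Jph2 and the scaffold Homer1 were 4.49-fold, 3.24-fold, 2.42-fold, 2.62-fold and 2.49-fold lower. Among calcium channel genes 4 of 13 fell and 2 rose. Rrad, a GTPase that blocks channel trafficking, read 27446, 44256 and 29089 against a background-level 236, 23.9 and 69.4, and Cacng1, the gamma subunit of the muscle channel, rose 3.07-fold.

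Genes of the membrane and its support fell in 7 of 22 cases and rose in 2 (median -0.23). Aqp4, the water channel of fast fibres, read 309, 460.1 and 277 against 17249, 26732 and 11690.4, and Capn3, a muscle calpain, 4412, 5064 and 3594 against 24699, 34039 and 23329.8. Both were lower on every denervated array than on any innervated array, with Aqp4 at a background-level mean. Dmd, dystrophin, was 2.2-fold and Sspn, sarcospan, 2.4-fold lower. Dysf, which reseals torn membranes, rose 2.32-fold.

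Among contractile proteins, the embryonic Myh3 and Myl4 and the cardiac Tnnt2 rose, while the cardiac actin Actc1 fell. Of 12 myosin heavy chains 4 fell (2 without denervated control 3) and 2 rose. Myh3, the embryonic chain, read 15508, 10189 and 7251 against 658, 895 and 1438, a 10.9-fold rise (limma adjusted p = 3.36e-06), and Myh14, a non-muscle chain, rose 2.74-fold. Myh8, the perinatal chain, had a difference of -0.24 ± 0.20 (limma adjusted p = 0.404). Myh2, the chain of fast oxidative fibres, read 77796, 48761 and 79595 against 177921, 158294 and 184562, 2.58-fold lower. Of 19 light chain and binding protein genes 11 fell and 3 rose (median -0.78, or 0.05 with spike-in centring). Mybph rose 7.27-fold and Myl4, the embryonic light chain, 4.39-fold on its brighter probe set and -0.66 (log2 change, not past the threshold) on the other, while the kinase Mylk2 and the Z-disc linker Myoz3 were 5.21-fold and 7.13-fold lower. Troponins and tropomyosins divided, with 5 of 16 higher and 6 lower (3 without denervated control 3 or innervated control 1 or with quantile normalization). With the 5'-to-3' covariate 1 was higher and 2 were lower. The slow troponins Tnni1 and Tnnt1 rose 3.03-fold and 2.04-fold and the cardiac Tnnt2 2.69-fold; Tnnc1, the slow and cardiac troponin C, had a difference of 0.04 ± 0.26 (limma adjusted p = 0.927). The slow-fibre genes Myl2 and Myl3 went down, by 2.20 and 2.07 on the log2 scale, with arrays of the groups overlapping for both. Both lost their call without denervated control 1 or innervated control 3 and with the 6 control arrays alone, and Myl2 also without denervated control 2. The slow-fibre list as a whole held 4 rises and 3 falls among 10. Its summed signal was 53194 to 58785 on the denervated arrays, and 38833, 50681 and 104358 on innervated controls 1, 2 and 3. The high signal of innervated control 3 thus enters the changes of these genes, and its source was not tested.

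Among 41 Z-disc, titin and stretch-responsive genes 17 fell and 8 rose (median -0.34, or 0.49 with spike-in centring); 11 fell with quantile normalization or the 5'-to-3' covariate. Ankrd1, a titin-binding stress sensor, read 212833, 152136 and 115071 against 3129, 4056 and 2447, a 49.1-fold rise (limma adjusted p = 5.98e-09). Its relative Ankrd2 read 111877, 92008 and 94827 against 14377, 6951 and 62407. Innervated array 3 gave a much higher Ankrd2 signal than the other innervated arrays, and the groups still did not overlap. Xirp1, Flnc and Fhl2, which gather at damaged or remodelled sarcomeres, rose 3.27-fold, 2.87-fold and 2.61-fold. Actc1, cardiac actin, was 6.82-fold lower, and Synpo2 4.14-fold lower.

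The keratin genes Krt18 and Krt8 rose, while of all 14 Krt genes tested 3 rose and 3 fell (median -0.22). Krt18 and Krt8, keratins that pair in simple epithelia, read 73719.6, 72418 and 49029 against 557, 388 and 508 and 20327, 14881 and 19436 against 34.0, 236 and 419. Denervated array 3 was the lowest for Krt18, at a level still far above the innervated arrays, and the innervated signals of Krt8 were background-level. The skin keratin Krt5 (-0.23 ± 0.34, limma adjusted p = 0.653) did not pass, and of 12 skin epithelium markers 5 were tested and 1 rose, Trp63 (4.85-fold), summed signal 5599 to 8121 against 3833 to 5183. In all 6 of 15 keratins and intermediate filament genes rose and 2 fell (median 0.41). Lmna, the A-type lamin, rose 4.93-fold and Sync, which ties desmin to the dystrophin complex, 2.34-fold; Synm was 2.48-fold lower and Des, desmin, had a difference of -0.13 ± 0.13 (limma adjusted p = 0.489).

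Several beta tubulins rose. In all 13 of 28 tubulin and microtubule genes rose and 3 fell (median 0.64). Tubb2a read 15619, 23229.5 and 22700.1 against 3540.2, 2879.7 and 3458, a 6.13-fold rise (limma adjusted p = 2.04e-07), and Tubb6, a beta tubulin of regenerating fibres, 29681, 22188 and 24379 against 2685, 1252 and 2121, 13-fold on its brightest probe set and 0.25 (log2 change) on another. Tubb2b, Tubb4b and Tubb5 rose 5.08-fold, 3.55-fold and 3.21-fold. The groups did not overlap for any of these 5 beta tubulins. Mapt, the microtubule-binding protein tau, rose 2.95-fold and Stmn1, which releases tubulin from microtubules, 2.82-fold. Tuba8, an alpha tubulin abundant in muscle, was 3.34-fold lower.

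A set of 37 pairs, each an adult muscle gene and a paralog with a broader or earlier pattern, put these isoform changes side by side; 32 pairs had both members tested. The adult member fell in 26 pairs, rose in 0 and did not pass in 6 (median -0.75, or 0.08 with spike-in centring). The paralog rose in 11 pairs, fell in 5 and did not pass in 16 (median 0.1, or 0.93 with spike-in centring). Over all genes tested 18.1% rose and 16.4% fell. In 10 pairs the adult member fell and the paralog rose, and in 28 of 32 the change of the adult member was the lower one, whichever centring was used, since centring moves both members alike. The pairs are a chosen set, with members chosen while earlier results of these data were known. The counts therefore describe these pairs and no wider rule. The widest contrast outside the receptor was AMP deaminase, which removes AMP in working muscle. Ampd1, the muscle form, read 60818, 42921 and 51756 against 130677, 136432 and 125958, and Ampd3, the form of red cells and other tissues, 44169.7, 49095 and 42917 against 3998, 3846 and 4007. The muscle form was 2.55-fold lower and the other form 11.4-fold higher on arrays that did not overlap (limma adjusted p = 2.06e-05 and 5.45e-09).

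Glucose transporters parted likewise. Slc2a4, which encodes the insulin-responsive GLUT4, read 12269, 8651 and 15843 against 55000.0, 60200.5 and 71990.4, 5.21-fold lower (limma adjusted p = 1.52e-06), and Slc2a1, the basal transporter GLUT1, rose 2.73-fold (limma adjusted p = 0.000351). Elongation factor 1 alpha, which carries tRNA to the ribosome, has an adult form in muscle and neurons, Eef1a2 (-0.78 ± 0.13, or 0.05 with spike-in centring), and a general form, Eef1a1 (0.66 ± 0.12), and the first fell while the second rose. The tubulins Tuba8 and Tuba1a (0.67 ± 0.15) and the pump subunits Atp1b1 and Atp1b3 showed the same opposition. Rpl3l, the muscle version of ribosomal protein L3, read 20963, 20966 and 25881 against 121755, 97339.6 and 110731, 4.87-fold lower (limma adjusted p = 9.22e-08), and was the only one of 46 cytosolic ribosomal protein genes that fell. The 4 exceptions were Casq1 with Casq2, Jph1 with Jph2, Ppp1r3a with Ppp1r3c and Acta1 with Actc1, in which the second gene had the lower change; the denervated signal of Ppp1r3a was background-level.

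**Figure D2:**
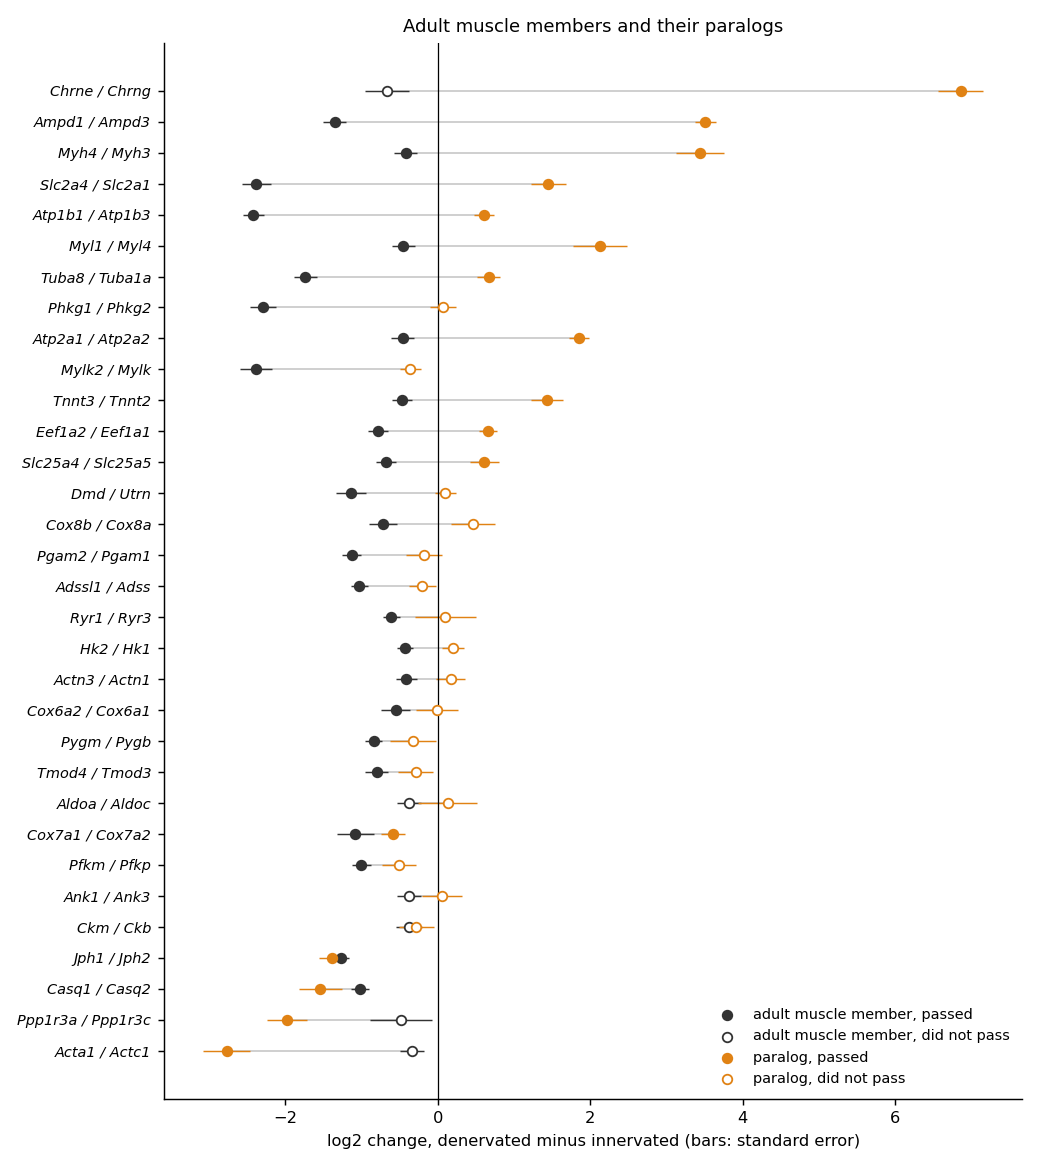
Log2 change with denervation of the adult muscle member (dark) and its paralog (orange) of 32 gene pairs, sorted by the difference; filled points passed the threshold, open points did not, and bars are standard errors. The adult member has the lower change in 28 of these chosen pairs. With spike-in centring every point moves to the right by the same amount, which turns falls smaller than that shift into rises.

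Most subunits of the proteasome rose. Of 14 subunits of the 20S core 12 rose and of 17 subunits of the 19S cap 16 rose, and none fell (medians 1.03 and 0.82). With the 5'-to-3' covariate 5 core subunits passed (median 0.74). The summed signal of the core was 376519 on innervated control 2, against 620101 and 619882 on innervated controls 1 and 3. Without innervated control 2, 10 core subunits rose (median 0.79). Psmd14, the deubiquitinase of the cap, read 61619, 76858 and 67635 against 29386, 21133 and 29959.8 (limma adjusted p = 2.15e-05), and Psma5 of the core 58263, 51542 and 61770.3 against 24492, 16866 and 27562. The rises were 2.58-fold and 2.53-fold, and for both genes innervated array 2 was the lowest of its group. The members that did not pass were Psmb7, Psma6 and Psmc5, all with positive differences (0.35, 0.41 and 0.48); Psma6 passed without innervated control 3 and Psmc5 without innervated control 1 and with the replicate block in the 6 control arrays. Among activators, assembly factors and shuttles 12 of 22 rose and 1 fell, Psme1, an interferon-inducible activator (1.65-fold lower). The call of Psme1 was lost without denervated control 2, without innervated control 1 and without innervated control 3. Nploc4, Ufd1 and Nsfl1c, cofactors of the p97 ATPase, rose 2.24-fold, 1.98-fold and 2.2-fold. The interferon-inducible subunits Psmb8 and Psmb9 had differences of -0.15 and -0.14 and did not pass.

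Ubiquitin ligases did not move together. Of 28 muscle ligases and FoxO targets 7 rose and 7 fell (median -0.13). Fbxo32, the ligase atrogin-1, read 91358, 82672 and 85195 against 21895, 29640.1 and 20164, and Trim63, the ligase MuRF1, 80539.9, 73579.9 and 79697 against 47731, 49488 and 41058. Both separated the groups, with the rise of Fbxo32 (3.66-fold) the larger against 1.69-fold for Trim63. Fbxo30, another ligase of atrophy, rose 2.09-fold, and the translation repressor Eif4ebp1, a FoxO target that is no ligase, 4.3-fold. Nedd4l was 3.53-fold lower, and the muscle-specific ankyrin-repeat ligase subunits Asb15, Asb11 and Asb14 were 4.58-fold, 4.07-fold and 3.69-fold lower. Conjugating enzymes were called higher in 9 of 31 cases and lower in 3, and deubiquitinating enzymes in 11 and 8 of 40 (5 lower without denervated control 1 or innervated control 2). Otud1 read 25236, 26036 and 12888 against 3746, 4409 and 3066, a 5.49-fold rise, and Usp14 and Cyld rose 2.66-fold and 2.75-fold.

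Autophagy and lysosome genes included large single rises in lists that were mixed. Of 35 autophagy genes 10 rose (28.6%) and 6 fell (17.1%). Of 35 cathepsin, calpain and lysosome genes 11 rose (31.4%) and 8 fell (22.9%), against 18.1% and 16.4% of all genes. Gabarapl1, which coats autophagosomes, read 34109, 42669.8 and 27957 against 8719, 8093 and 7876, and Atp6v1a, a subunit of the proton pump that acidifies lysosomes, 17862, 23067 and 15381 against 4079, 5266 and 3026. Neither gene's groups overlapped, with rises of 4.18-fold and 4.59-fold. The proteases Ctsl and Lgmn rose 2.59-fold and 2.94-fold, Sqstm1, the cargo receptor p62, 1.91-fold, and Ulk2, an initiating kinase, was 2.31-fold lower. Macrophages also carry lysosomal genes, and the part of the macrophage markers given above in these changes was not tested.

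Genes that make ribosomes rose in near unison. Of 60 ribosome biogenesis genes 50 rose and 0 fell, 83.3% against 18.1% of all genes, and the arrays of the groups did not overlap for 53 (median 0.89). Nhp2, a protein of the small nucleolar particles that modify ribosomal RNA, read 27808, 28662 and 37998 against 8879, 4522 and 8653, and Bop1, which matures the large subunit, 12277, 12748 and 13543 against 3399, 3958 and 3606. The denervated arrays of Bop1 lay within a narrow band well above the innervated ones. The rises were 4.43-fold and 3.51-fold (limma adjusted p = 1.17e-05 and 3.27e-07), although another probe set of Bop1 (0.47) did not pass. Nop58, Tsr1 and Gar1 rose 3.3-fold, 3.13-fold and 2.61-fold. Among the 10 that did not pass were Ubtf (-0.09 ± 0.15), the factor of RNA polymerase I, and Tcof1 (0.00 ± 0.19).

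Fewer ribosomal protein genes were called. Of 46 cytosolic ribosomal protein genes tested, among 83 listed, 11 rose and 1 fell (median 0.41). Their summed signal was 3140488 to 3529558 on the denervated arrays, and 3291349, 2088473 and 3161095 on innervated controls 1, 2 and 3. The groups thus overlapped in that sum, with innervated control 2 the lowest. The count that rose ranged from 4 to 17 when single arrays were left out, the lowest without denervated control 1 and the highest without innervated control 3, was 6 without denervated control 3 and 7 without innervated control 2, and was 20 with the replicate block in the 6 control arrays. It was 33 with quantile normalization, 7 without a trend in the variance, 5 with the 6 control arrays alone and 2 with the 5'-to-3' covariate. They included Rps25 (2.56-fold) and Rpl12 (1.97-fold). Translation factors were called higher in 20 of 46 cases and lower in 5 (3 without denervated control 1). Eif6, which keeps ribosomal subunits apart during assembly, read 25649.5, 29609.9 and 29131 against 8754, 5597 and 9312, and Eif4a1, the helicase of initiation, 83616, 98870.0 and 66891 against 27313, 27192 and 24073. Both were higher on every denervated array than on any innervated array, with rises of 3.64-fold and 3.14-fold. Pabpc4, a poly(A)-binding protein, was 2.33-fold lower. Of 20 aminoacyl-tRNA synthetase genes 11 rose and 1 fell (median 0.46), led by Hars (2.31-fold) and Vars (2.05-fold). Among mitochondrial ribosomal proteins 5 of 76 rose and 14 fell (median -0.03), counts that ranged from 3 to 8 and from 5 to 23 when each control array was left out in turn. The falls numbered 6 with median scaling, 8 with the 6 control arrays alone and 9 without a trend in the variance. Splicing factors rose in 21 of 55 cases (7 with the covariate) and fell in 3; Sf3b3 and Snrpa1 rose 2.4-fold and 2.25-fold, and Mbnl1, which sets adult splicing patterns in muscle, had 1.87-fold lower signal (or -0.08 on the log2 scale with spike-in centring).

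**Figure D3:**
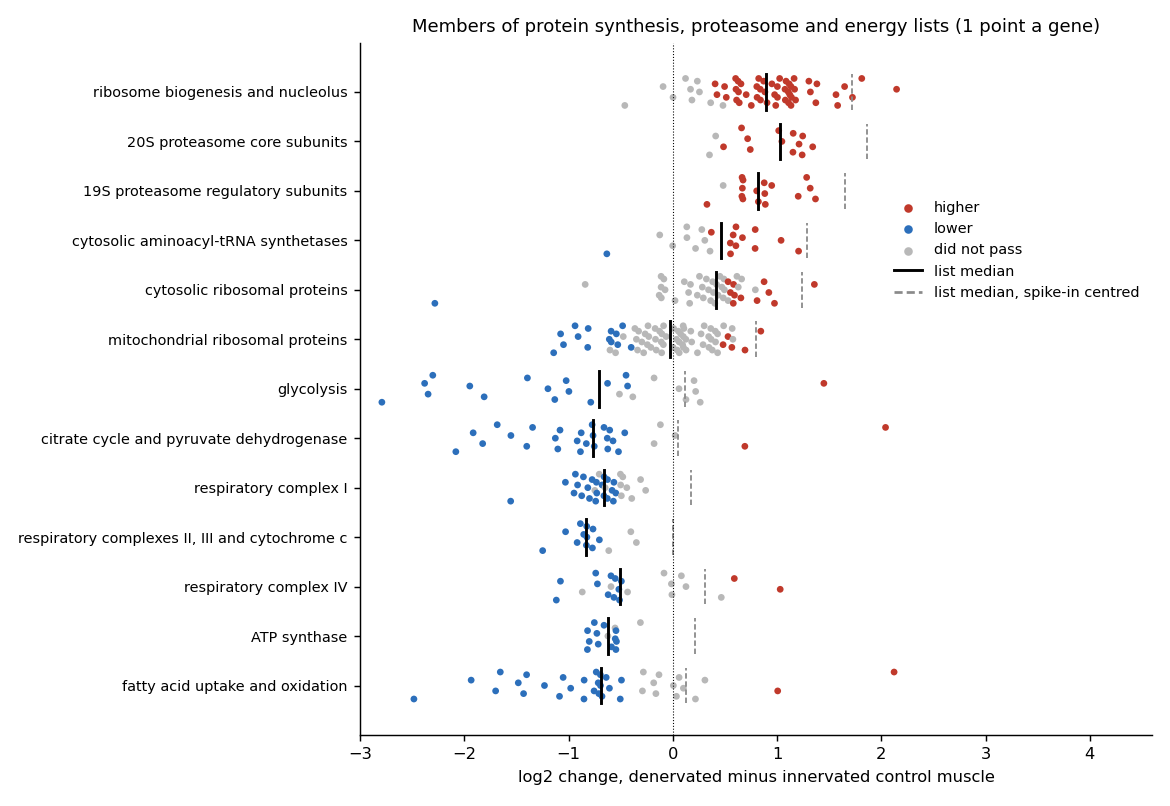
Log2 change with denervation of each tested gene in 13 lists (red, rose; blue, fell; grey, did not pass); the black bar is the list's median and the dashed grey bar the median after spike-in centring. Ribosome biogenesis and proteasome genes lie to the right of 0 and energy genes to the left, and the medians of the energy lists lie at or above 0 with spike-in centring.

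Many protein folding and secretion genes also rose. In the unfolded protein and integrated stress responses 18 of 31 genes rose and 2 fell (median 0.59). Xbp1, the factor spliced by the endoplasmic reticulum sensor IRE1, read 55174, 67325 and 40750.0 against 15026, 17764 and 12859, and Ppp1r15a, which restarts translation after stress, 12088, 18178 and 10570.1 against 3072, 3132 and 2506. Their rises were 3.53-fold and 4.56-fold, with denervated array 2 the highest for both. Ddit3, the death-promoting factor CHOP, fell by 0.68 on the log2 scale, a call that was lost without denervated control 2, innervated control 1 or innervated control 3 and a direction that turned with spike-in centring (0.15). Secretory pathway genes rose in 28 of 60 cases, among them Surf4 (2.26-fold), a cargo receptor, and fell in 2 (9 and 0 with the 5'-to-3' covariate). Of 44 cytosolic chaperone genes 23 rose and 3 fell (median 0.58). The small heat shock protein Hspb1 read 189619, 184897 and 116275 against 49203, 26968 and 53320.4, and Hspb8, which acts in chaperone-assisted autophagy of the Z-disc, 160728, 150479.7 and 119577 against 40221, 37937 and 43023. Denervated array 3 was the lowest of its group for both, without overlap with the innervated arrays. Hspb6, another small heat shock protein, was 2.06-fold lower.

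Antioxidant genes rose in 18 of 33 cases and fell in 5 (3 without denervated control 2 or 3 or innervated control 1; median 0.79). Srxn1, a sulfiredoxin controlled by NRF2, read 21328, 28033 and 22209 against 2828, 3004 and 2789.8, an 8.2-fold rise (limma adjusted p = 9.22e-08); its dimmest probe set (0.67) did not pass. Hmox1, Txnrd1, Gclm and Mt2 rose 5.56-fold, 2.81-fold, 2.56-fold and 4.17-fold. The mitochondrial dismutase Sod2 and the uncoupling protein Ucp3 were 2.11-fold and 2.79-fold lower. Growth arrest genes took both directions, 8 higher and 5 lower among 23. Gadd45a read 105264, 99827 and 87971 against 8548, 5987 and 7449.7 and Cdkn1a, the inhibitor p21, 38194, 48806 and 51039 against 3216, 2454 and 3126, whereas Gadd45g read 3580.3, 2494 and 3098 against 27293, 15399 and 17306. The first 2 rose 13.4-fold and 15.6-fold and the third was 6.38-fold lower, as was Gadd45b (4.52-fold). Eda2r, a receptor of the tumour necrosis factor family that p53 induces, read 29899, 37865 and 36002 against 1254, 1701 and 1653, a 22.4-fold rise (limma adjusted p = 2.22e-09).

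Some enzymes of polyamine synthesis and breakdown changed in opposite directions. Smox, the oxidase that turns spermine back into spermidine, read 5830.0, 5015 and 5264 against 50809, 48406 and 50913, 9.31-fold lower (limma adjusted p = 5.18e-09). Odc1, which makes putrescine, read 54456, 66307 and 67839 against 17574, 21177 and 29854, and Srm, which makes spermidine, rose 2.7-fold against 2.8-fold for Odc1. The 2 synthetic enzymes were higher and the oxidase lower on every denervated array. Of 13 polyamine, proline and arginine genes in all, 6 rose and 5 fell (3 without denervated control 1 or innervated control 3).

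Energy metabolism fell relative to the other genes. Of 24 glycolysis genes 15 fell and 1 rose (median -0.71, or 0.12 with spike-in centring). Tpi1, triose phosphate isomerase, read 47949.8, 35727 and 45785 against 228202, 212312 and 194486, and Gpd1, which feeds the glycerol phosphate shuttle, was 6.92-fold lower. Tpi1 was 4.93-fold lower, with the 3 arrays of each group close together. Fbp2 and Ldha were 5.09-fold and 2.63-fold lower. Glycogen genes fell in 9 of 20 cases and rose in 3; Ppp1r3c, which targets a phosphatase to glycogen, read 36405, 37551 and 32735 against 125993, 178111 and 121976, and Phkg1 and Gys1 were 4.88-fold and 2.83-fold lower. Stbd1, Gaa and Gbe1, which tether, digest and branch glycogen, rose 2.68-fold, 2.13-fold and 1.91-fold.

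In the mitochondrion, 24 of 29 citrate cycle and pyruvate dehydrogenase genes fell and 2 rose (median -0.77, or 0.05 with spike-in centring). Dlat, a core subunit of pyruvate dehydrogenase, read 16364, 15832 and 14573 against 50579.7, 66012 and 50310.5, 3.54-fold lower (limma adjusted p = 4.98e-07), and Pdp1, the phosphatase that activates the complex, was 4.23-fold lower. Got1, Idh2 and Idh3a were 3.77-fold, 3.21-fold and 2.93-fold lower. Of the respiratory chain, 22 of 33 genes of complex I fell (median -0.66, or 0.17 with spike-in centring), 11 of 14 of complexes II and III with cytochrome c (-0.83, or 0.00), 11 of 22 of complex IV (-0.51, or 0.31; 4 without innervated control 1, 5 without innervated control 3 and 7 without denervated control 2 or 3, without a trend in the variance or with the covariate, 6 without the filter and 4 with quantile normalization) and 12 of 15 of the ATP synthase (-0.62, or 0.21). None of complexes I to III or the ATP synthase rose, and 2 of complex IV did, with the assembly factor Cox19 (2.04-fold) the larger. Carriers and import genes fell in 15 of 44 cases and rose in 5. Slc25a12, the aspartate-glutamate carrier, was 3.22-fold lower, and Slc25a24, the ATP-magnesium carrier, rose 4.36-fold.

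Fatty acid genes followed, with 24 of 37 lower and 2 higher (median -0.69, or 0.13 with spike-in centring). Fabp3, the fatty acid carrier of muscle, read 12409, 10988 and 17250.4 against 91310.5, 45125 and 100153, 5.59-fold lower (limma adjusted p = 2.9e-05), and Acaa2 and Acadm of beta oxidation were 3.82-fold and 3.25-fold lower. Of 24 lipid droplet genes 9 fell and 3 rose. The droplet coat Plin5 read 889, 642 and 1070.3 against 6154, 5331 and 7809, and the phosphatidate phosphatase Lpin2 12821, 16434 and 15557 against 1387, 1326 and 1344. The groups did not overlap for either gene, and the changes were opposite, 7.36-fold lower for Plin5 and 10.9-fold higher for Lpin2. Lpin1, the muscle form of that phosphatase, was 2.02-fold lower. Genes of cholesterol and fatty acid synthesis went both ways, with 7 of 32 higher (4 without denervated control 1 or 3 or innervated control 2) and 5 lower. These shares (21.9% and 15.6%) lay near those of all genes (18.1% and 16.4%).

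Nucleotide and amino acid metabolism held both directions. Of 37 creatine, purine and branched-chain amino acid genes 17 fell and 6 rose (median -0.37). Impdh1, Hprt and Atic of purine synthesis and salvage rose 3.56-fold, 2.78-fold and 2.37-fold, and Ak1, the adenylate kinase of muscle, was 2.64-fold lower. In serine and one-carbon metabolism 4 of 12 rose and 2 fell. Psat1, which makes serine, read 2448, 2184 and 2400.2 against 485, 598 and 546, a 4.23-fold rise, and Mthfd2 rose 2.5-fold, while Psph, the last step of serine synthesis, was 2.15-fold lower. Amino acid transporters went both ways. In all 8 of 23 rose and 5 fell. The cationic transporter Slc7a2 read 2418, 3314 and 3056 against 18080.4, 17746 and 17136, 6.05-fold lower (limma adjusted p = 4.91e-08), and its relative Slc7a1 and the taurine transporter Slc6a6 rose 2.99-fold and 4.56-fold. Slc7a5, the leucine transporter LAT1, rose from a background-level signal (2078, 2506 and 2908 against 261, 77.0 and 592).

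Growth signalling genes were split. Irs1, the insulin receptor substrate, read 13008, 9190.3 and 14914 against 73938, 87980.5 and 61836, and its relative Irs2 2836, 3041 and 1446 against 678, 696 and 709. The groups were apart for both genes, in opposite directions (6.08-fold lower and 3.29-fold higher, limma adjusted p = 1.18e-06 and 0.000197). Mtor rose 2.48-fold on its brightest probe set, its other probe set (0.51) not passing, and Akt1 rose 2.09-fold. In all 10 of 37 insulin, IGF and mTOR genes rose and 11 fell (6 without denervated control 2, with median scaling or with the covariate and 7 without denervated control 1 or innervated control 1 or 2). Among BMP, myostatin and TGF-beta genes 16 of 47 rose and 9 fell. Gdf5, a BMP ligand that limits loss of denervated muscle, read 9317, 13282 and 13660.0 against a background-level 165, 186 and 169. Tgfb1 and its receptor Tgfbr1 rose 3.69-fold and 2.88-fold, and Acvr1 was 2.18-fold lower. Of 41 Wnt and Notch genes 14 fell and 5 rose (3 without denervated control 2 or innervated control 2 or 3; median -0.35, or 0.48 with spike-in centring). Frzb, a secreted Wnt antagonist, read 705, 655 and 942 against 6899.6, 6816 and 7315, 9.07-fold lower (limma adjusted p = 3.28e-07), and the Wnt receptors Fzd4, Fzd7 and Fzd9 were 2.57-fold, 2.56-fold and 2.44-fold lower.

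The extracellular matrix showed no common direction. Of 32 collagen chains 9 fell and 3 rose (median -0.35, or 0.48 with spike-in centring), and the main fibrillar chains Col1a1 (-0.71 ± 0.30, limma adjusted p = 0.0987) and Col3a1 (-0.24 ± 0.13, limma adjusted p = 0.205) did not pass; Col1a1 passed without denervated control 3 or innervated control 3 (-1.07 and -0.96). Col19a1, a basement membrane chain made by muscle cells and some neurons, read 7214, 5604 and 5068 against 886, 734 and 648, a 7.72-fold rise (limma adjusted p = 5.8e-07). The 3 denervated arrays were alike and all above the innervated ones. Matrix glycoproteins, proteases and inhibitors had 13 rises and 13 falls among 61 (21.3% each, near the 18.1% and 16.4% of all genes). Timp1, a protease inhibitor, read 5635, 5192 and 5269 against 619.5, 540.1 and 626, and Thbs1 and Mmp3 rose 4.56-fold and 3.84-fold, while Timp4 was 2.39-fold lower. Of 25 integrin and adhesion genes 6 rose (3 without innervated control 1) and 8 fell; Itgb1bp2, the muscle chaperone melusin, read 6686, 5749 and 5379 against 41810.4, 25477 and 38193, 5.8-fold lower.

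Macrophage markers were the immune markers that rose in number. Of 24 macrophage markers, all of them tested, 13 rose and 0 fell, 54.2% against 18.1% of all genes (median 0.93), and 7 rose with the 5'-to-3' covariate (median 0.68). Cd68, a lysosomal glycoprotein of macrophages, read 16151, 12073 and 14283 against 972, 806 and 1039, and Lgals3, galectin-3, 56457, 36336 and 19467 against 2325, 1670.3 and 3072. Every denervated array was higher; Lgals3 spanned a wide range, with array 3 the lowest. Those 2 genes rose 14.8-fold and 14.9-fold, against smaller rises of the complement genes C1qa, C1qb and C1qc (2.22-fold, 2.17-fold and 2.18-fold), the receptor gene Csf1r (1.96-fold) and Mrc1 (2.15-fold). Adgre1, which encodes F4/80, and Itgam did not pass (0.26 and 0.12). Of 12 granulocyte markers 4 were tested and 1 rose (2 without denervated control 2), S100a8 (7034, 8483 and 15583 against a background-level 158, 169 and 307). Of 13 T and NK cell markers 2 were tested and none passed, of 8 B cell markers 2 were tested and 1 fell, Ighm, whose other probe sets ranged from -0.48 to 1.49, and of 8 mast cell markers 5 were tested and none passed.

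Complement and acute-phase genes rose in 14 of 29 cases and fell in 1 (median 0.61). Serpina3n, a secreted protease inhibitor, read 6502, 3208 and 7312 against 1092, 491 and 965, and Ptx3, a pentraxin, 951, 1237 and 678 against 6917, 5378 and 6549. The first was 6.54-fold higher and the second 6.64-fold lower without overlap. Orm1 and Orm2, acid glycoproteins of plasma, rose from background. The rises of C1qa, C1qb and C1qc belong to the macrophage markers as well, and the part of those markers in this list was not tested. Antigen presentation and interferon genes were seldom called. None of 34 rose and 3 fell, with Gbp3 2.58-fold lower (median -0.03), below the shares of all genes, and 3 rose without innervated control 1. Chemokines and receptors had 4 rises (16.7%) and 2 falls (8.33%) among 24, neither share above that of all genes (18.1% and 16.4%). Ccl2, which draws monocytes, had a difference of 0.13 ± 0.70 (limma adjusted p = 0.917), Cxcl14 rose 2.61-fold and Ackr3 was 3.26-fold lower. Of 23 S100, annexin and galectin genes 9 rose and 1 fell, with Anxa4 and Anxa7 up 4.71-fold and 4.44-fold.

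Some proliferation genes rose. Of 39 DNA replication genes 11 rose and 2 fell (4 without innervated control 2; median 0.17), and of 51 mitosis genes 18 rose and 3 fell (median 0.70). With the 5'-to-3' covariate 3 mitosis genes rose and 2 fell. The summed signal of the mitosis genes was 89153 to 119034 on the denervated arrays, and 123468, 62947 and 70404 on innervated controls 1, 2 and 3. The groups thus overlapped in that sum, with innervated control 1 the highest. Rrm2, the regulated subunit of ribonucleotide reductase, read 9212, 10944 and 11198 against 916, 922 and 681, a 12.3-fold rise (limma adjusted p = 5.3e-08), and the licensing factor Cdt1 rose 4.95-fold. Rrm1, its partner subunit, had a difference of -0.05 ± 0.26 (limma adjusted p = 0.911). Mki67, the antigen of cycling nuclei, read 2509, 1893 and 1584 against 701, 710.4 and 474, and the spindle genes Prc1 and Birc5 rose from background-level signals. All 3 separated the groups at low signals. Satellite cell and myoblast markers rose in 7 of 15 cases and fell in 1; Megf10 and Sdc4 rose 3.16-fold and 4.5-fold, and Pax7, the factor of satellite cells, had a difference of 0.09 ± 0.30 (limma adjusted p = 0.848). The cells in which these genes rose cannot be told from whole-muscle RNA, and the part of the macrophage markers was not tested.

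Some markers of other cell types also passed. Of 13 Schwann cell markers 1 rose and 3 fell (summed 18993 to 19686 on the denervated against 31808 to 35620.0 on the innervated arrays). Ngfr, the neurotrophin receptor that denervated Schwann cells display, rose 4.23-fold, and the myelin gene Pmp22 was 2.49-fold lower, while 6 of the 8 probe sets of Mbp, the brightest 4.78-fold, were lower and 2 were higher (0.57 and 1.05). Sox10, the lineage factor, had a difference of 0.05 ± 0.28 (limma adjusted p = 0.924). Of 15 fibroblast and fibro-adipogenic progenitor markers 1 rose and 3 fell (5 without denervated control 3), with Pdgfra at 0.20 ± 0.23 (limma adjusted p = 0.569). Of 10 tendon markers 2 rose, Scx (4.68-fold) and Tnc (2.36-fold), and 1 fell; their summed signal varied between arrays of a group (22436 to 86151 against 53236 to 106501). Of 7 adipocyte markers tested 3 fell, among them Lpl (2.35-fold), which muscle fibres also make, and Adipoq had a difference of 0.19 ± 0.60 (limma adjusted p = 0.847). Of the 10 erythroid markers 2 were tested and neither passed.

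**Figure D4:**
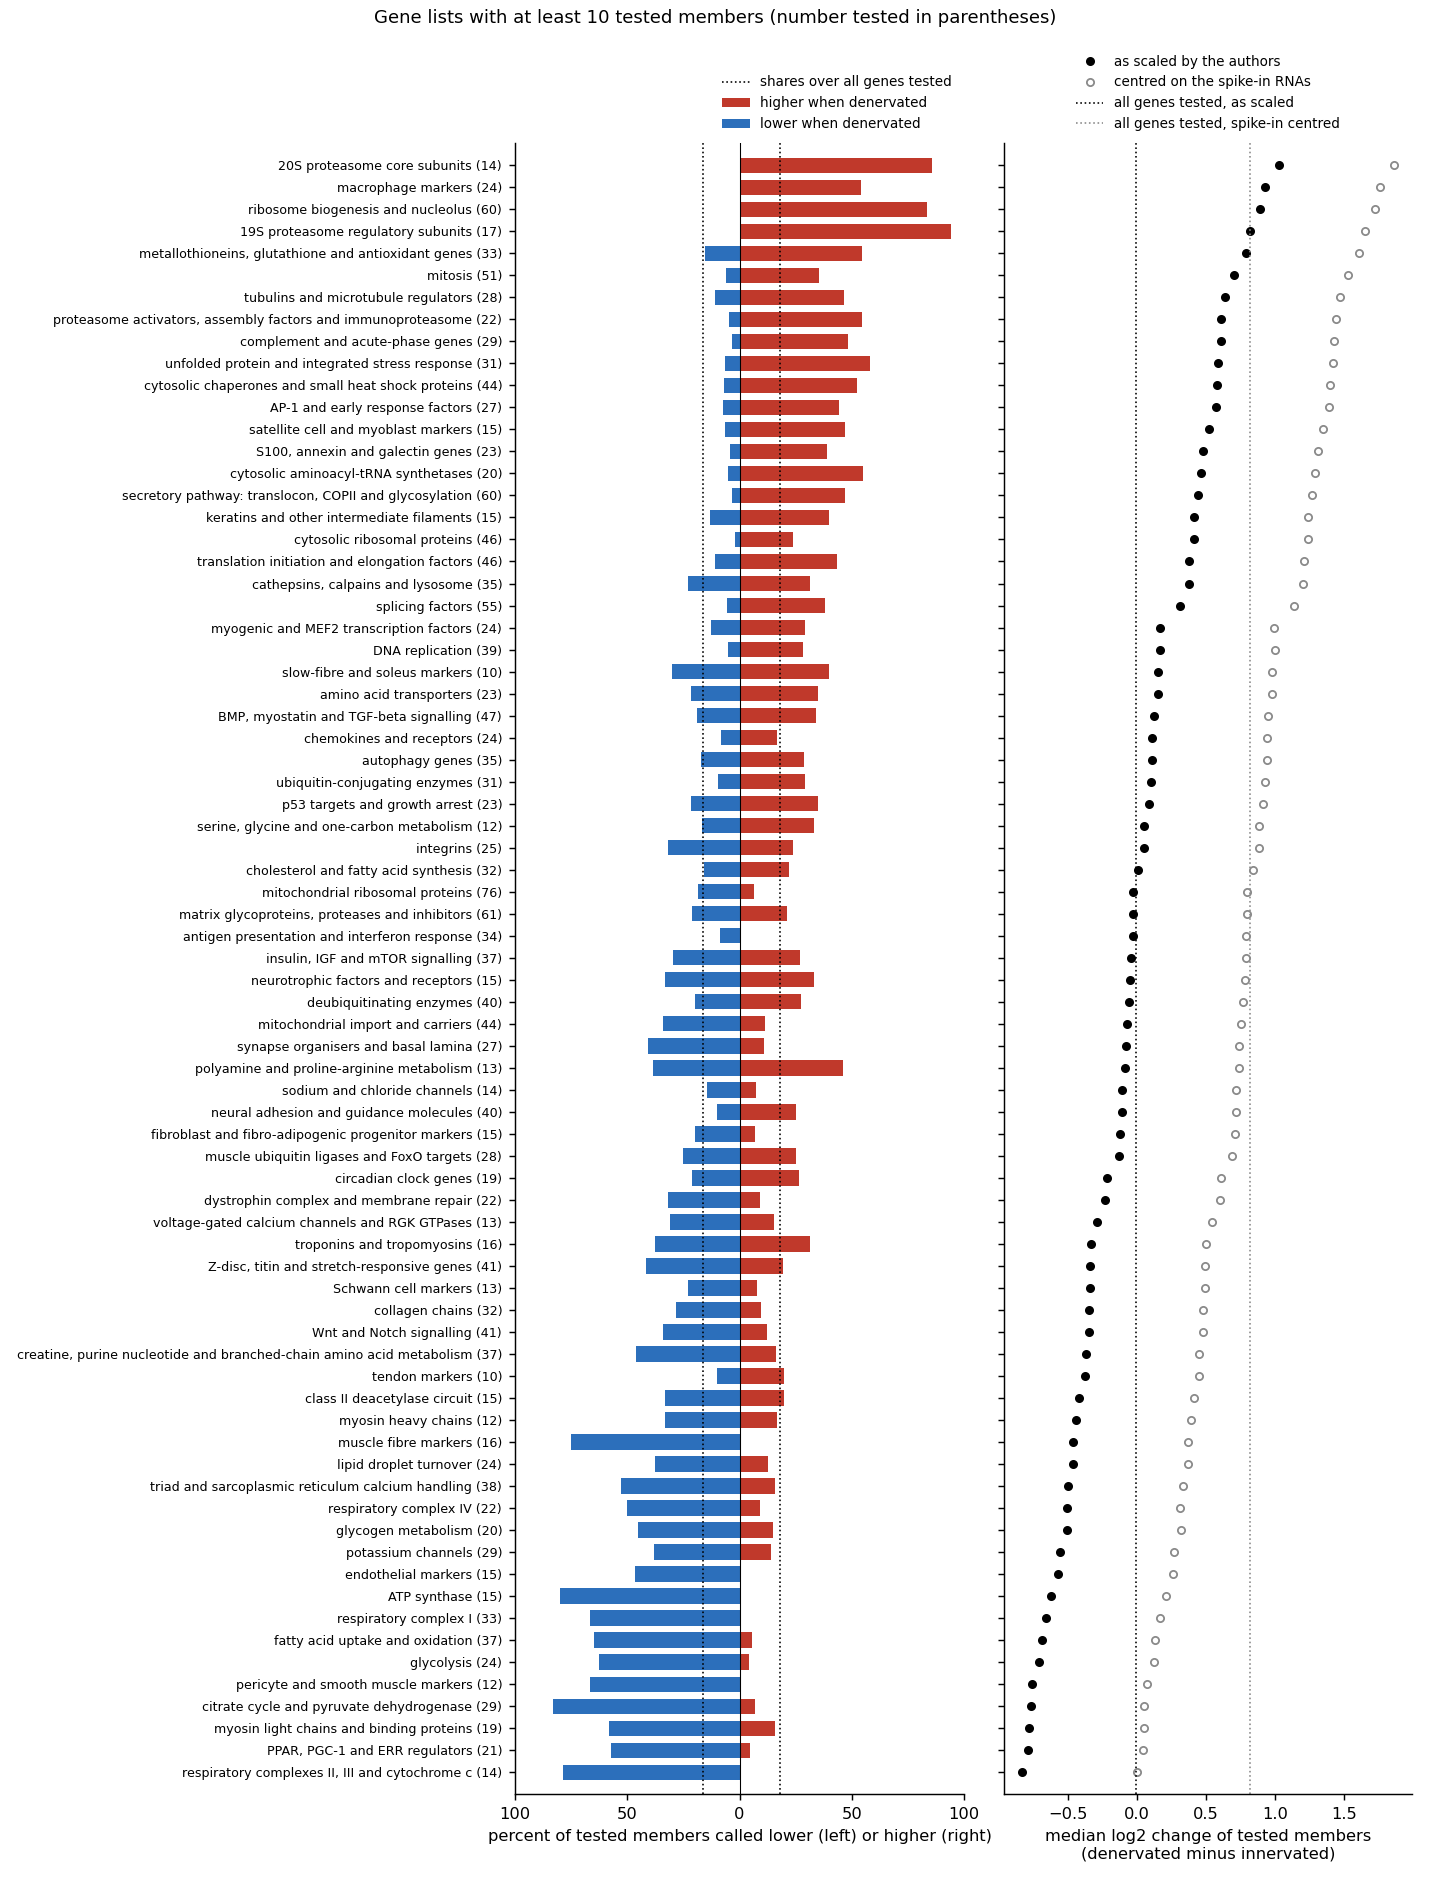
Left, percent of the tested members of each list of at least 10 that rose (red) or fell (blue), with dotted lines at the 18.1% and 16.4% of all genes; right, median log2 change as scaled by the authors (filled) and with spike-in centring (open). Lists are sorted by median, from complexes II and III at the bottom to the 20S proteasome at the top, and with spike-in centring no median shown lies below 0.

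Families of genes that share a symbol stem, taken over all genes with at least 10 tested members, gave 155 stems. The stem with the largest share of members called was Psmd, with 13 of 14 higher (92.9% called, median 0.83). Others with high medians were Tnfrsf (5 of 10 higher and 1 lower, median 0.86), Utp of the ribosome processome (7 of 11 higher, 0.63) and Polr of the RNA polymerases (13 of 25 higher and 3 lower, 0.53). Tnfrsf12a, the TWEAK receptor, led the receptors at 63056, 54452 and 35912 against 1996, 2869.7 and 5186, 16-fold higher. The lowest median belonged to Asb, ligase subunits of which several are muscle-specific (9 of 16 lower and 1 higher, -0.85, or -0.02 with spike-in centring), followed by Myl, Ndufb and Cox (-0.69, -0.68 and -0.51, each positive with spike-in centring). Dusp, the phosphatases of MAP kinases, changed often but in both directions, with 6 of 22 higher and 9 lower (68.2% called). Dusp13, a muscle phosphatase, read 104084, 98429 and 81902 against 23341, 29866 and 25651.

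Further large changes lay outside the lists. Cpne2, a calcium-dependent membrane-binding copine, read 34099, 29737 and 31530.1 against 894, 1405 and 1231, and Ppp1r27, a phosphatase regulator, 130309.7, 105361 and 83350.5 against 11952, 6387 and 17096. Both were far above the innervated level on every array (27.1-fold and 9.56-fold higher). Ugcg, which makes glucosylceramide, rose 12.9-fold, Fez1, a kinesin adaptor, 12.8-fold and Blnk, a signalling adaptor of B cells, 14.9-fold. Among the falls, Mlf1, a nucleocytoplasmic adaptor, read 3134, 3222 and 4853 against 73195, 68925 and 79281, and Tfrc, the transferrin receptor that imports iron, 9990.1, 9865 and 6624 against 89641, 98102 and 76541. The groups of both genes lay far apart, with log2 changes of -4.33 ± 0.18 and -3.33 ± 0.18. Plcd4, a phospholipase C, Map2k6, the kinase of p38, Slc16a3, the lactate exporter MCT4, Nrep and Dhrs7c, an enzyme of the sarcoplasmic reticulum, were 15.6-fold, 12.6-fold, 10.4-fold, 10.3-fold and 18.6-fold lower.

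**Figure D5:**
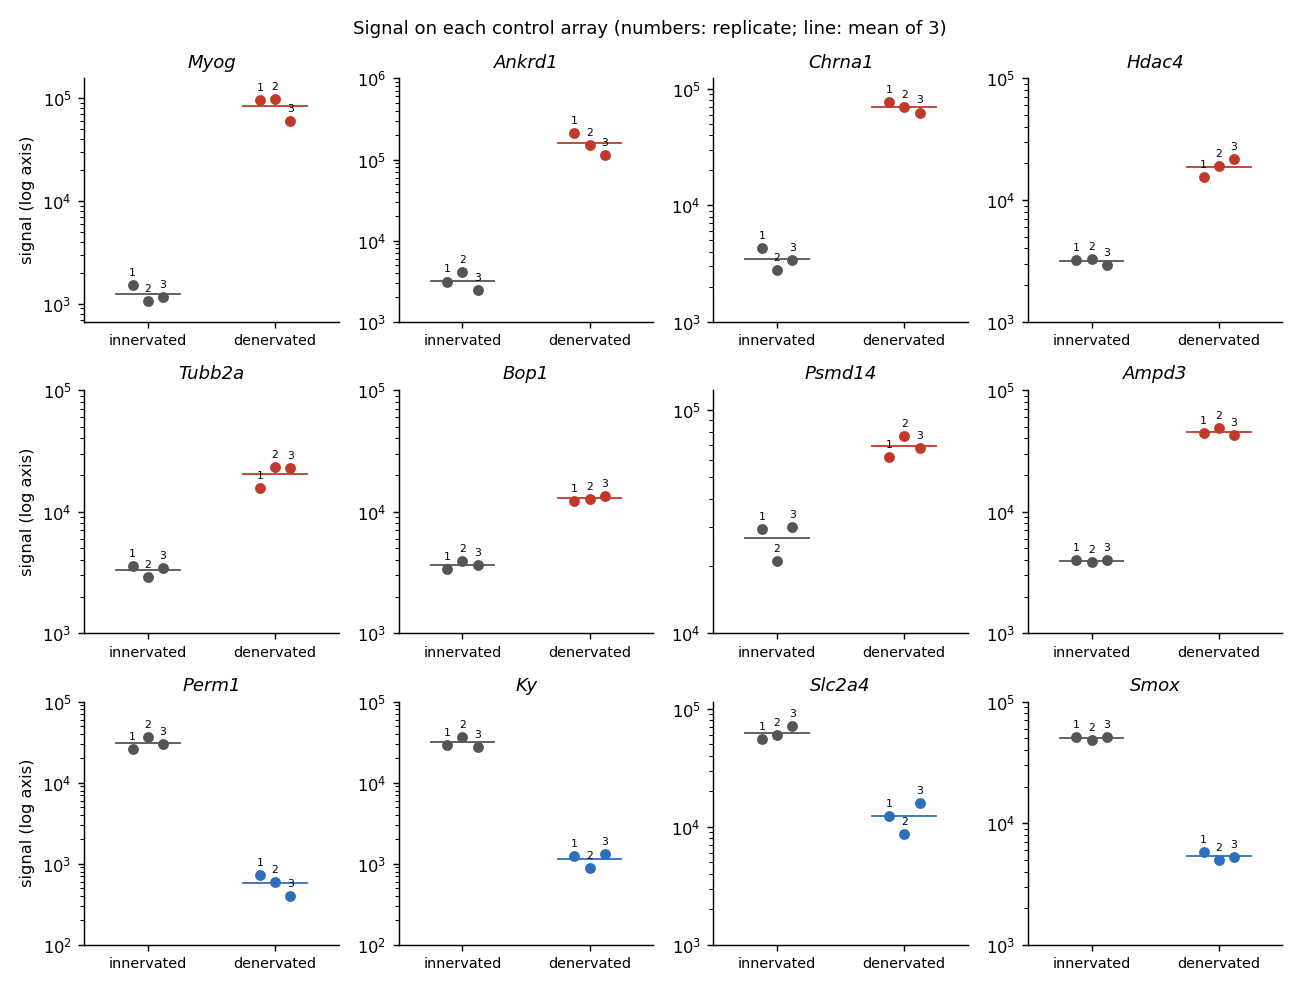
Signal of 12 genes on each of the 3 innervated and 3 denervated control arrays, on log axes; numbers mark the replicate and lines the mean of 3. The groups do not overlap for any of the 12 genes, which holds for 46.7% of all genes tested, and genes were named partly by rules that require it. Myog, Ankrd1, Chrna1, Hdac4, Tubb2a, Bop1, Psmd14 and Ampd3 were higher and Perm1, Ky, Slc2a4 and Smox lower after denervation.

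Letters upstream of the genes that changed by at least 4-fold were compared with those of all genes tested, over the 250 bases before each listed start and on both strands. Starts were listed for 166 of the 212 genes that rose and 154 of the 197 that fell. CAGCTG was present for 18.7% of those that rose, 13.6% of those that fell and 12% of all genes tested. An A and T rich site of the MEF2 family, searched by its degenerate consensus, was present for 0.602%, 7.14% and 1.76%. The RUNX core TGTGGT was present for 10.8%, 5.19% and 10.4%, the cyclic AMP response core TGACG for 22.9%, 14.9% and 26.8%, and any E-box CANNTG for 60.8%, 66.2% and 57.4%. These shares are descriptions, with the MEF2 share of the genes that rose resting on 1 gene and that of the genes that fell on 11.

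Some genes named above as changed did not pass under other settings. With the 5'-to-3' covariate 27 of them lost their call, namely Ankrd2, Atp1b3, C1qc, Cox19, Dach2, Ddit3, Dmd, Fhl2, Fxyd6, Gbp3, Gfra1, Id3, Ighm, Mki67, Nfil3, Ppargc1b, Rpl12, Runx1t1, Sema3e, Sema4d, Serpina3n, Slc7a5, Tnc, Tnni1, Tnnt1, Tuba1a and Vars. All 27 kept their direction, and the changes of 3 (Ddit3, Ighm and Mki67) were at least as large with the covariate. With spike-in centring 23 falls lost theirs, namely Acvr1, Casq1, Dmd, Fzd4, Fzd7, Fzd9, Gbp3, Hlf, Hspb6, Lpin1, Lpl, Mbnl1, Myh2, Myl2, Myl3, Nfil3, Pabpc4, Pmp22, Psph, Sod2, Sspn, Timp4 and Ulk2, and Eef1a2, Ddit3 and Psme1 turned positive. Over all genes, 908 of the 2003 that fell had a change above 0 with spike-in centring, and so did 12 of the 26 adult members of the paralog pairs that fell.

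The counts of further lists moved by over 1.5 times with the 5'-to-3' covariate, under which 2475 in place of 4208 genes passed. In protein turnover, 7 activators and assembly factors of the proteasome rose in place of 12, 4 conjugating enzymes in place of 9, 6 deubiquitinating enzymes in place of 11 and 5 autophagy genes in place of 10. In protein synthesis and folding, 13 translation factors rose in place of 20, 9 unfolded protein response genes in place of 18 and 14 chaperones in place of 23. Of signalling and matrix genes, 8 BMP and TGF-beta genes rose in place of 16, 8 matrix glycoprotein and protease genes in place of 13, 6 complement genes in place of 14 and 5 S100, annexin and galectin genes in place of 9. The other rises that shrank were those of amino acid transporters (5 in place of 8), cholesterol and fatty acid synthesis (3 in place of 7), polyamine genes (3 in place of 6), clock genes (3 in place of 5) and neurotrophic factors and receptors (3 in place of 5). Falls numbered 9 in place of 15 for mitochondrial import and carriers, 5 in place of 11 for synapse organisers, 4 in place of 7 for the dystrophin complex and 4 in place of 8 for integrins.

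The response of the control genotype was compared with that of the mutant genotype by the interaction term of the same fit. It passed for 65 of 26170 probe sets (0.248%), or 32 genes (0.262%), and 2017 probe sets had an unadjusted p below 0.05, against 7670 probe sets called for denervation in control muscle. The count of probe sets was 25, 35, 36 and 108 without denervated control 2, denervated control 1, innervated control 1 and innervated control 2, and 10 when the variance was moderated without a trend. The control arrays enter both sides of that difference.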

How the data were processed

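Total RNA of mouse tibialis anterior was hybridised to 11 Affymetrix arrays, 6 of them used here. The deposited values are probe set signals, an intensity on a linear scale, which the authors had scaled so that the 2% trimmed mean was equal on every array, as the values show; software and settings are not given in the sources used here. Of 45101 probe sets, 64 controls were left out, and a probe set was kept where its signal exceeded the median of the array on 2 or more of 11 arrays (26170 probe sets). They were taken as log2(signal + 16), computed here from the deposited signals.

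A mean for each of the 4 groups was fitted over all 11 arrays with limma 3.58.1 (R 4.3.3, eBayes with a trend), with Benjamini-Hochberg adjustment at 0.05; the groups share 1 estimate of the spread. The fit was tested on simulated data. Only probe sets with 1 gene symbol in the platform annotation (34958) were named, and 5846 of the 12214 genes had several kept probe sets, 47 of them with calls in opposite directions. Deviations from the group means correlated weakly between same-numbered denervated and innervated controls (0.11, 0.22 and 0.3). Those of differently numbered controls correlated at -0.24 to 0.04. The sample titles state no pairing, so whether same-numbered samples belong together is not known. The main fit, which gave every change, SE, p and call not tied to another setting, used no pairing. A replicate block that treats same-numbered samples as pairs was among the alternatives. The others were other scalings, pseudocounts, filters, variance moderation, a 5'-to-3' covariate, other probe sets per gene and each control array left out. The number of arrays limits the precision. The members and the 84 gene lists were chosen with earlier results of these data known. Genes were named where they were the 20 largest changes in each direction, or the 10 brightest 2-fold changes in each direction, without overlap of the groups, or were among up to 5 leading members, or other members with their values, of a list, a paralog pair or a symbol family.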

Additional observations from a re-analysis of the deposited data

Results flagged for a closer look

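The denervation change of some genes described above differed between the control and the mutant genotype by the interaction term of the limma fit (mutant change minus control change, adjusted over 26170 probe sets, n = 3 and 3 control and 3 and 2 mutant arrays). The values are log2 changes. Aqp4 gave -5.62 in control and -2.97 in mutant muscle, a difference of 2.65 (limma adjusted p = 0.0257). Asb15 had a change of -2.20 in control and -4.17 in mutant muscle, a difference of -1.97 (limma adjusted p = 0.0149). Blnk stood at 3.90 in control and 5.59 in mutant muscle, a difference of 1.70 (limma adjusted p = 0.00603). Chrng gave 6.86 in control and 2.99 in mutant muscle, a difference of -3.87 (limma adjusted p = 0.00603). Krt18 had a change of 7.01 in control and 4.71 in mutant muscle, a difference of -2.31 (limma adjusted p = 0.0276). Myh2 stood at -1.37 in control and -3.78 in mutant muscle, a difference of -2.41 (limma adjusted p = 0.0391). Myh3 gave 3.44 in control and -0.42 in mutant muscle, a difference of -3.86 (limma adjusted p = 0.00603). Plcd4 had a change of -3.96 in control and -2.41 in mutant muscle, a difference of 1.56 (limma adjusted p = 0.0452). Plin5 stood at -2.88 in control and -0.79 in mutant muscle, a difference of 2.09 (limma adjusted p = 0.0245). Pln gave 3.46 in control and 0.78 in mutant muscle, a difference of -2.69 (limma adjusted p = 0.0112). Ppara had a change of -2.73 in control and -0.88 in mutant muscle, a difference of 1.84 (limma adjusted p = 0.036). Rrad stood at 8.43 in control and 3.55 in mutant muscle, a difference of -4.89 (limma adjusted p = 0.0452). Rrm2 gave 3.62 in control and 1.20 in mutant muscle, a difference of -2.42 (limma adjusted p = 0.00605). The innervated control signals of Chrng and Rrad and the denervated control signals of Aqp4 were background-level, so the sizes of their changes and differences depend on the background. The same 3 innervated and 3 denervated control arrays give the control change throughout, and the mutant change rests on 2 innervated arrays.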

How the results depend on the processing

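The count of probe sets called was 7670 and that of genes 4208. Both moved by over 1.5 times with spike-in centring (15569 probe sets and 7776 genes) and with the 5'-to-3' covariate (4488 and 2475). Under the other settings they lay within 1.5 times of these values. The 6 control arrays fitted alone gave 6162 probe sets and 3429 genes. Leaving out single arrays gave 6174 to 7570 probe sets and 3452 to 4139 genes. The replicate block, which pairs same-numbered samples, gave 8312 probe sets and 4407 genes in the 6 control arrays and 7515 and 4067 in all 11; it changed the calls and counts given beside the results. The count of the interaction was 65 probe sets, 10 without a trend and 25 to 108 with single arrays left out. Median scaling moved the share of higher calls to 59.3% of 7031 probe sets, with a median of 0.07 over all genes.

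Spike-in centring turned the signs of Ddit3 (0.15), Eef1a2 (0.05) and Psme1 (0.11) among the genes named and, among the lists in which 50% or more of the members fell, of the medians of the ATP synthase (0.21), PPAR, PGC-1 and ERR (0.04), citrate cycle (0.05), fatty acid (0.13), glycolysis (0.12), muscle fibre (0.37), myosin light chain (0.05), pericyte (0.07), complex I (0.17), complex IV (0.31) and triad lists (0.33). The median of complexes II and III became 0.00. Over all 84 lists, 45 of 47 medians below 0 rose above 0, and over all genes 908 of 2003 falls did. The cause was not tested.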
